A study of Mus musculus with 8 samples.

Results

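Cystatin C and 6 cathepsins were followed across the cells of the mouse long bone. The 7 members, Cst3, Ctsb, Ctsd, Ctsk, Ctsl, Ctss and Ctsz, were chosen by gene symbol from the 32285 genes in the single-cell count matrices, and each symbol named 1 gene in all 8 matrices. They were taken up because Cst3 was already known from earlier results of these data to be higher in mutant osteogenic cells. For this reason the Cst3 difference between mutants and controls is given here as a description, without a test, and the tests are kept to the cathepsins, to age and to a list of related genes. All mice were female and carried Sox4fl/fl Sox11fl/fl Sox12fl/fl alleles. Control mice had no Cre, whereas SOXCOsxCre mice also carried OsxCre, which doxycycline food kept silent until weaning. This Cre is under Osterix control, so that it marks osteoblast precursors and their progeny. 2 control and 2 SOXCOsxCre mice were used at 7 weeks of age and 2 of each at 13 weeks, 1 library per mouse. Cells were released from femurs and tibiae after removal of the periosteum, epiphyses and marrow plug, and haematopoietic cells were depleted with magnetic beads, so that osteoclasts and macrophages were not a target of the isolation. OsxCre is also weakly active in growth plate chondrocytes (GPCs).

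Cystatin C, encoded by Cst3, is a small secreted protein that binds tightly and reversibly to the active site of papain-family cysteine proteases. Its targets include cathepsins B, K, L and S, lysosomal enzymes that degrade protein within the cell and, when released, the matrix around it. Cathepsin Z, of the same protease family, was counted with them, without a claim that cystatin C inhibits it. Cathepsin K is best known as the collagen-degrading enzyme of the osteoclast, and cathepsin S acts in antigen-presenting cells. Cathepsin D is an aspartic protease, which cystatins do not inhibit, and it stands here as a lysosomal member outside the inhibitor's reach. The comparison asked whether the difference in Cst3 between SOXCOsxCre and control mice was shared by the genes of its protease targets.

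The libraries held 81894604 to 156090286 UMIs, and replicate 1 was deeper than replicate 2 in every group. After filtering 59629 cells remained, and clusters were named "-like" from marker lists. 14 cell types with at least 10 cells in every mouse were compared. Values are library-size-scaled UMI counts (CPM): UMIs were summed over the cells of one type in one mouse and divided by their TMM-scaled total, and each ± is the SD over mice unless SE is stated. Sox4 stood at 33.4% of the control level in osteoblast-like (OB-like) cells, 37.0% in preosteoblast-like (preOB-like) cells, 38.5% in Lepr+ osteoprogenitor-like (Lepr+ OP-like) cells and 40.7% in Lepr+ mesenchymal stromal cell-like (Lepr+ MSC-like) cells of SOXCOsxCre mice, and no mutant reached the lowest control in these 4 osteogenic types. Sox4 was at 71.8% of the control level in GPC-like cells, with overlapping mice. Among the kept barcodes, 431 sequences (0.728%) occurred in more than 1 library.

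In the mm10 (GRCm38) annotation, Cst3 lies on the minus strand at chr2:148871722-148875692 and has 3 exons. Ctsz lies on the same chromosome at chr2:174427493-174439039, also on the minus strand. Ctsk (chr3:95499256-95509362) and Ctss (chr3:95526786-95556403) are neighbours on the plus strand of chromosome 3. Ctsb is at chr14:63122462-63145923 on the plus strand. Ctsd is at chr7:142375911-142388038 and Ctsl at chr13:64359337-64370890, both on the minus strand. All 7 are protein-coding, and the values below count reads from the 3′ end of each transcript, so that levels can be compared between cells but not between genes.

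RefSeq promoter windows were found for 6 of the 7 members. The stretches upstream of every annotated start of the inhibitor and of cathepsin K are shown because these 2 members carried the larger differences in osteoblasts. Capitals mark letters that match a SOX hexamer.
Cst3, chr2:148875693-148875762, minus strand, GRCm38.p6: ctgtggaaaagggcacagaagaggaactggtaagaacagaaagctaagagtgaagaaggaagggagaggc
Ctsk, chr3:95498960-95499209, plus strand, GRCm38.p6: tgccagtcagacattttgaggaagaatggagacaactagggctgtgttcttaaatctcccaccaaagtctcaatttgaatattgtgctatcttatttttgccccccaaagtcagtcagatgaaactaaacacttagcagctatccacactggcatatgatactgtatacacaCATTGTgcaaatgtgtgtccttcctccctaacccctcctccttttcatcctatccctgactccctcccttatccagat
Within the 250 bases before the RefSeq start, read on both strands, the Cst3 window held neither of the SOX hexamers ACAAAG and ACAATG, and the Ctsk window held ACAATG once, as its reverse complement. ACAATG also occurred once each in the Ctsl and Ctsz windows, and ACAAAG once in that of Ctss. Among all 32851 windows of this length, ACAAAG occurred in 16.5% and ACAATG in 10.7%. CACGTG, the core of the CLEAR element bound by TFEB, was found in the windows of Ctsd and Ctsl and in 6.02% of all windows. A match is a description of letters and not a binding site.

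Cst3 was detected in all 14 types, and the 2 cartilage types had the highest means. In control mice hypertrophic GPC-like cells held 19985 ± 4955 CPM and GPC-like cells 12131 ± 6166 CPM (n = 4), against 5049 ± 2121 CPM in Sca1+ MSC-like cells, the next type. Hypertrophic GPC-like cells were above GPC-like cells in 4 of 4 mice, and GPC-like cells were above Sca1+ MSC-like cells in 4 of 4. GPC-like cells were a mixture in this respect. A cluster led by Snorc, Col10a1 and Cytl1, genes that also led the hypertrophic cells, held 11954 to 15486 CPM at 7 weeks, and the other main cluster 1079 to 1714 CPM, so that the place of the class rests on its make-up. Lepr+ OP-like cells had 3034 ± 530 CPM, proliferating Lepr+ OP-like cells 2920 ± 935, pericyte-like cells 2294 ± 389, preOB-like cells 1972 ± 584, OB-like cells 1944 ± 431 and Lepr+ MSC-like cells 1780 ± 100. The last 3 changed places with age. In both 7-week controls OB-like cells lay above preOB-like and below Lepr+ MSC-like cells, and in both 13-week controls the order was the reverse. Endothelial-like cells (720 ± 199 CPM) and granulocyte or monocyte-like cells (655 ± 120 CPM) came next. Erythroid-like cells, which should hold little Cst3 of their own, had 231 ± 93.6 CPM. This value is taken as the background from free RNA, although its source was not tested. Across the 14 types in control mice, the genes whose mean profile was most like that of Cst3 were Ccdc80 (Pearson r = 0.975), Tiam2, Sdc4, Fn1, which encodes fibronectin, and Usp53 (r = 0.953), out of 6243 genes searched. All 5 had their highest level in hypertrophic GPC-like cells.

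The cathepsins followed another order. Ctsb, encoding a broad lysosomal protease, was highest in Sca1+ MSC-like cells (907 ± 147 CPM), endothelial-like cells (830 ± 125) and Lepr+ MSC-like cells (691 ± 26.5), and OB-like cells had 152 ± 3.80 CPM. Ctsl, encoding a lysosomal cysteine protease that also matures other enzymes, was highest in Lepr+ MSC-like cells (917 ± 78.1 CPM) and was 345 ± 49.9 CPM in OB-like cells. Both genes thus stood lower along the order Lepr+ MSC-like, Lepr+ OP-like, preOB-like and OB-like, each step in the means. Ctsz, encoding a carboxypeptidase, showed the same order, from 352 ± 66.1 CPM in Lepr+ MSC-like cells to 120 ± 17.0 in OB-like cells. Ctsd was lowest in OB-like cells (84.0 ± 9.07 CPM) and highest in Sca1+ MSC-like cells (339 ± 88.7). The genes most like Ctsb, Ctsl, Ctsz and Ctsd in profile were Slc39a1 (r = 0.952), Ext1 (r = 0.928), Dclk1 (r = 0.961) and Zmynd8 (r = 0.866).

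Ctsk was a stromal gene in this isolation. It was highest in Sca1+ MSC-like cells (487 ± 162 CPM in controls), followed by Lepr+ MSC-like (280 ± 32.6), Lepr+ OP-like (220 ± 33.7), preOB-like (171 ± 29.0) and proliferating Lepr+ OP-like cells (169 ± 20.5), then OB-like cells (105 ± 13.6), and was 4.36 ± 1.94 CPM in erythroid-like cells. Its closest profiles were those of Scarf2 (r = 0.993), Pcolce (r = 0.989), which encodes an enhancer of procollagen processing, and Ddr2 (r = 0.978), a collagen receptor. Ctss was found mainly in granulocyte or monocyte-like cells, among the 14 types, with 119 UMIs there and 0 to 21 UMIs in each of the others. Lymphoid-like cells, too few to be compared, held more for their number, with 42.7 and 38.7 CPM in the 7-week controls (48 and 257 cells). None was seen among 12661024 UMIs of preOB-like cells, which allows up to 0.237 CPM. S100a8, S100a9 and Nlrp3 had the profiles most like that of Ctss. These correlations are over 14 type means from the same 4 mice and are descriptions.

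Cst3 was 1.88-fold to 2.05-fold higher in the 4 osteogenic types of SOXCOsxCre mice than in controls. In Lepr+ MSC-like cells the control mice had 1683 and 1851 CPM at 7 weeks and 1706 and 1880 CPM at 13 weeks, and the mutant mice had 2930 and 2649 CPM at 7 weeks and 3906 and 4847 CPM at 13 weeks. All 4 mutants lay above all 4 controls, an order seen for 1.91% of all genes tested in these cells. In Lepr+ OP-like cells the controls had 2579 and 2651 CPM at 7 weeks and 3716 and 3188 at 13 weeks, against 4478 and 4250, then 7580 and 8563 CPM in mutants. The groups again did not overlap, as for 1.96% of genes there. In OB-like cells the controls had 1496, 1669, 2403 and 2210 CPM, and the mutants 2496, 2636, 3824 and 5679 CPM, in the same order of ages. In preOB-like cells the values were 1457, 1480, 2415 and 2537 CPM in controls and 2248, 2451, 4144 and 6578 CPM in mutants, so that the mutants were above the controls at each age, while the 7-week mutants overlapped the 13-week controls. Proliferating Lepr+ OP-like cells, kept apart from these 4 types, stood lower at 1.37-fold (1.17-fold at 7 and 1.51-fold at 13 weeks), with overlapping genotypes at 7 weeks.

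**Figure D1:**
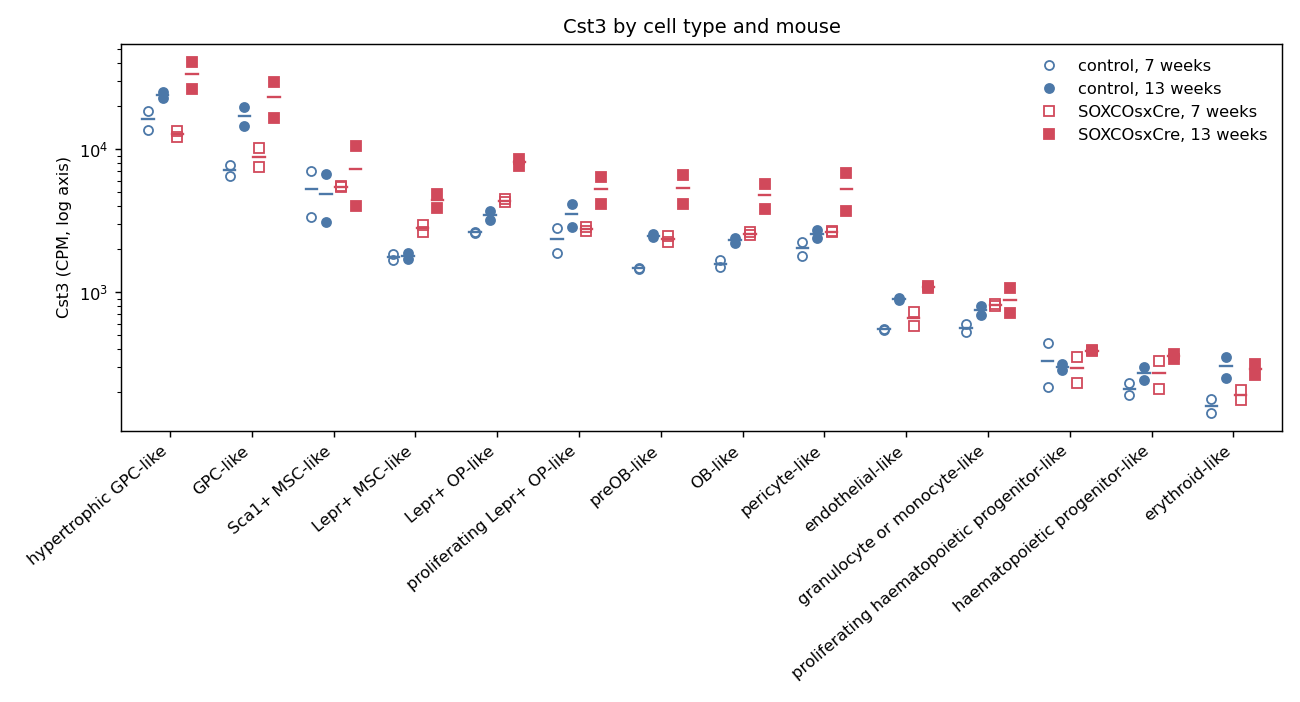
Cst3 level in CPM on a log axis for each mouse (points) and group mean (short lines) in the 14 cell types. Mutant squares lie above control circles of the same age in Lepr+ MSC-like, Lepr+ OP-like, preOB-like and OB-like cells, and also in pericyte-like and endothelial-like cells. GPC-like and hypertrophic GPC-like cells show overlapping genotypes over the 2 ages together. Hypertrophic mutants lie below controls at 7 weeks and above them at 13 weeks. The share of all genes with such orders was not counted in endothelial-like and hypertrophic GPC-like cells.

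The fitted log2 difference (mutant minus control, both ages, ± SE) was 0.87 ± 0.15 in OB-like, 0.90 ± 0.17 in preOB-like, 0.98 ± 0.19 in Lepr+ OP-like and 0.97 ± 0.16 in Lepr+ MSC-like cells. It was 0.71 ± 0.23 in pericyte-like cells, where the mutants lay above the controls within each age, as did those of 3.25% of genes there, 0.41 ± 0.22 in proliferating Lepr+ OP-like cells, 0.37 ± 0.21 in GPC-like cells, 0.32 ± 0.37 in Sca1+ MSC-like cells, 0.27 ± 0.14 in endothelial-like cells, 0.09 ± 0.14 in erythroid-like cells and 0.08 ± 0.19 in hypertrophic GPC-like cells, where mutants were below controls at 7 weeks (0.79-fold) and above them at 13 weeks (1.41-fold). Granulocyte or monocyte-like cells had 0.39, haematopoietic progenitor-like cells 0.37 and proliferating haematopoietic progenitor-like cells 0.11. In endothelial-like cells too the mutants lay above the controls within each age, at 7 weeks with 582 and 728 CPM against 544 and 552 CPM. The share of all genes with such an order was not counted in endothelial-like or hypertrophic GPC-like cells. The 7-week hypertrophic GPC-like values rest on 16 cells in each control and on 25 and 72 cells in the mutants. Mutants above controls at each age were also seen for 6.18% of all genes tested in OB-like, 3.27% in preOB-like, 4.49% in Lepr+ OP-like and 4.02% in Lepr+ MSC-like cells. Because the members were chosen from this contrast, no inference is drawn from these values. As a description, in 9 finer OB-like clusters of the same mice the difference ranged from 1.44-fold to 2.11-fold. Mutants were above controls at both ages in 8 of the 9, and the share of all genes with this order was not counted. The exception, a cluster led by Col1a1, Col1a2 and Col24a1, had a control at 797 CPM and a mutant at 795 CPM at 7 weeks.

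In the 4 osteogenic types the estimates were larger at 13 than at 7 weeks, but this step did not pass a test. By the ratio of means the same order held outside these types, as in pericyte-like cells (1.31-fold at 7 and 2.04-fold at 13 weeks) and Sca1+ MSC-like cells (1.05-fold and 1.49-fold). It was the opposite only in granulocyte or monocyte-like cells (1.44-fold at 7 and 1.19-fold at 13 weeks) and erythroid-like cells (1.19-fold and 0.96-fold). In Lepr+ MSC-like cells the log2 difference was 0.66 ± 0.23 (SE) at 7 weeks and 1.29 ± 0.23 at 13 weeks, and in OB-like cells 0.70 ± 0.21 and 1.04 ± 0.21. The test of the change between ages is independent of the choice of Cst3, and none of the 84 member and type combinations passed it with edgeR (lowest adjusted p = 0.924, 2 at an unadjusted p under 0.05, 0 with DESeq2), where 0.00897% of all gene and type combinations did.

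RNA of other cells was measured beside these levels. GPC-like cells are rich in Cst3, and 15 of 15 GPC markers had UMIs in each osteogenic type. The summed GPC markers were 617 to 937 CPM in Lepr+ MSC-like cells of controls and 540 to 1173 in mutants, 792 to 1682 and 654 to 2252 in Lepr+ OP-like cells, and 3895 to 6213 and 2186 to 5147 in OB-like cells. The ranges overlapped in each type. If every GPC marker UMI had come with Cst3 in the ratio found in GPC-like cells of the same mouse, 1.66% to 9.39% of the Cst3 of Lepr+ MSC-like cells and 7.78% to 45.1% of that of OB-like cells would be accounted for. After subtracting that amount, mutants were 2.02-fold and 2.08-fold the controls in these 2 types, 2.05-fold in Lepr+ OP-like and 1.99-fold in preOB-like cells, and the genotypes did not overlap within either age. The summed macrophage markers, of which 11 of 12 had UMIs and Vsig4 was at 0, were lower in mutants in OB-like cells (17.6 to 60.5 CPM in controls, 9.28 to 21.5 in mutants) and Lepr+ OP-like cells (49.0 to 90.0 and 27.6 to 40.9). Cst3 in erythroid-like cells was 231 ± 93.6 CPM in controls and 240 ± 62.6 CPM in mutants (n = 4 each). Haematopoietic progenitor-like cells, near that level in controls, had 241 ± 45.7 CPM in controls and 313 ± 71.0 CPM in mutants.

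Of the 5 cathepsin members tested in the osteogenic types, Ctsk alone passed the test between genotypes there, and its call depended on the fit. In edgeR's quasi-likelihood fit with Benjamini-Hochberg adjustment over all genes, 0 of the 20 tests of these members in the 4 osteogenic types passed an adjusted p of 0.05 without pairing, 3 had an unadjusted p under 0.05, and DESeq2 called 1, Ctsk in OB-like cells, where DESeq2 called 2.6% of all genes. The fit with a replicate block, described with Ctsk, called 2 of the 20. The share of all genes called by edgeR was 1.4% in OB-like, 0.304% in preOB-like, 0.712% in Lepr+ OP-like and 0.182% in Lepr+ MSC-like cells. In the other 10 types 0 of 50 tests of these members passed with edgeR or DESeq2, 7 had an unadjusted p under 0.05, and 0.00802% of all gene and type combinations were called. With 2 mice a group, changes of 1.5-fold and 2-fold were simulated for 100 genes each. In OB-like sums of 14510 genes 37% and 88% of them were recovered, and in preOB-like sums of 8867 genes 14% and 79%. Changes of the smaller size were thus often missed. Unchanged genes called numbered 18 in OB-like and 5 in preOB-like sums. In OB-like sums their share of the calls was above the one that an adjusted p of 0.05 aims at.

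**Figure D2:**
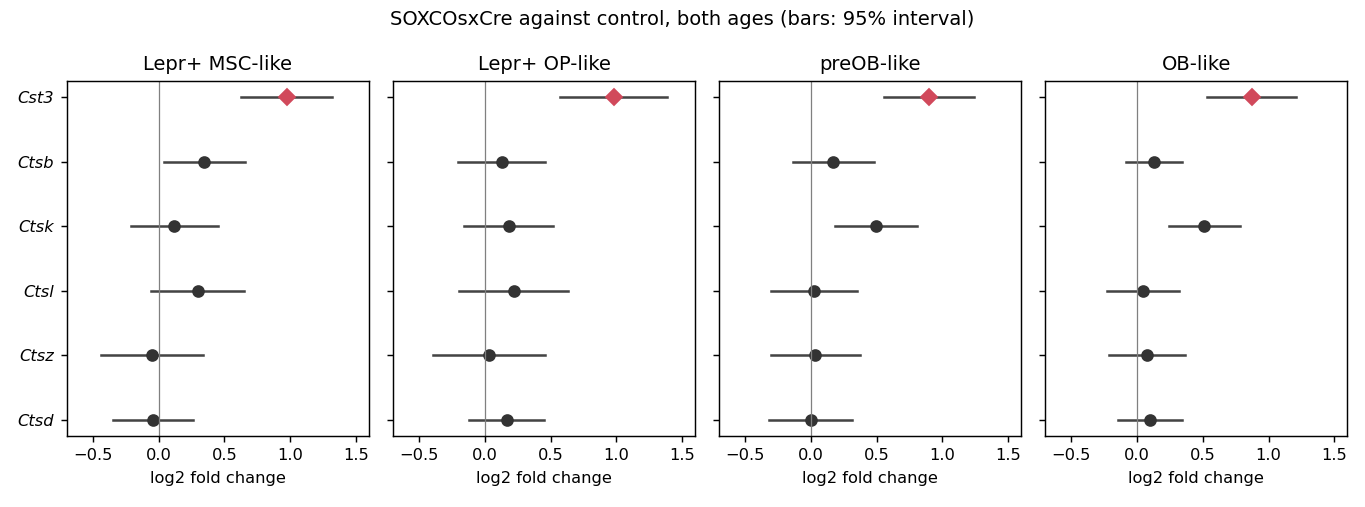
Fitted log2 fold change (SOXCOsxCre over control, both ages) of 6 members in the 4 osteogenic types, with 95% intervals as bars. Cst3 (diamonds) lies between 0.87 and 0.98, while the cathepsins (circles) lie between -0.05 and 0.51, the highest being Ctsk in OB-like and preOB-like cells. Cst3 was chosen for its rise in this contrast, so its bars are a description and not a test.

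Cathepsin B showed its largest osteogenic estimate in Lepr+ MSC-like cells. The controls had 686, 729.5, 676 and 672 CPM and the mutants 863, 863, 819.5 and 969 CPM. All mutants lay above all controls, as for 1.91% of all genes tested in these cells. The log2 difference was 0.35 ± 0.14 (SE; 95% interval 0.04 to 0.65), with an adjusted p of 0.63 in edgeR. In OB-like cells Ctsb was 152 ± 3.80 CPM in controls and 166 ± 13.1 CPM in mutants, a log2 difference of 0.13 with an interval of -0.09 to 0.34. Outside the osteogenic types, Ctsb in Sca1+ MSC-like cells was 907 ± 147 CPM in controls and 1176 ± 111 CPM in mutants. The mutants there were above the controls at each age, as for 3.31% of genes, and no cathepsin member passed in that type. Ctsl had 917 ± 78.1 CPM in controls and 1127 ± 185 CPM in mutants in Lepr+ MSC-like cells (log2 0.30, interval -0.06 to 0.65, adjusted p = 0.789), and 345 ± 49.9 and 355 ± 22.8 CPM in OB-like cells (log2 0.04, interval -0.23 to 0.32). For Ctsz the interval ran from -0.44 to 0.34 in Lepr+ MSC-like and from -0.21 to 0.37 in OB-like cells. Ctsd, outside the reach of cystatins, ran from -0.35 to 0.26 and from -0.15 to 0.34.

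Cathepsin K was the member whose call between genotypes depended on the fit. In OB-like cells the controls had 86.0 and 117 CPM at 7 weeks and 107 and 111 CPM at 13 weeks, and the mutants 125 and 149 CPM at 7 weeks and 171 and 159.8 CPM at 13 weeks. All 4 mutants were above all 4 controls, as for 2.95% of all genes tested in OB-like cells. The log2 difference was 0.51 ± 0.12 (SE), a mean of 151 ± 19.6 CPM against 105 ± 13.6 CPM, with an adjusted p of 0.0809 in edgeR without a replicate block. With each mutant paired to the control of the same number and age as a block, the difference was 0.52 with an adjusted p of 4.85e-04, in a fit that called 8.61% of all genes, and DESeq2 without the block gave 0.00538. No label ties the number to a litter, and it also went with depth, so that the calls with the block rest on an assumed pairing. In preOB-like cells the controls had 154, 213, 150.4 and 168 CPM and the mutants 217, 216, 256 and 275 CPM, again without overlap, an order that 1.47% of genes had there. There the log2 difference was 0.50 ± 0.15 (SE) with an adjusted p of 0.333, and 0.00617 with the block, which called 1.55% of all genes. In Lepr+ MSC-like cells (280 ± 32.6 and 303 ± 36.4 CPM) and Lepr+ OP-like cells (220 ± 33.7 and 249 ± 23.3 CPM) the log2 differences were 0.12 and 0.18, with intervals from -0.21 to 0.45 and from -0.16 to 0.52. In the 9 finer OB-like clusters Ctsk was 1.23-fold to 1.70-fold the control level, with mutants above controls at both ages in 2 of the 9, and in the 735 of 955 preOB-like cells that fell into 1 finer cluster it was 1.36-fold, with mutants not above controls at both ages.

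**Figure D3:**
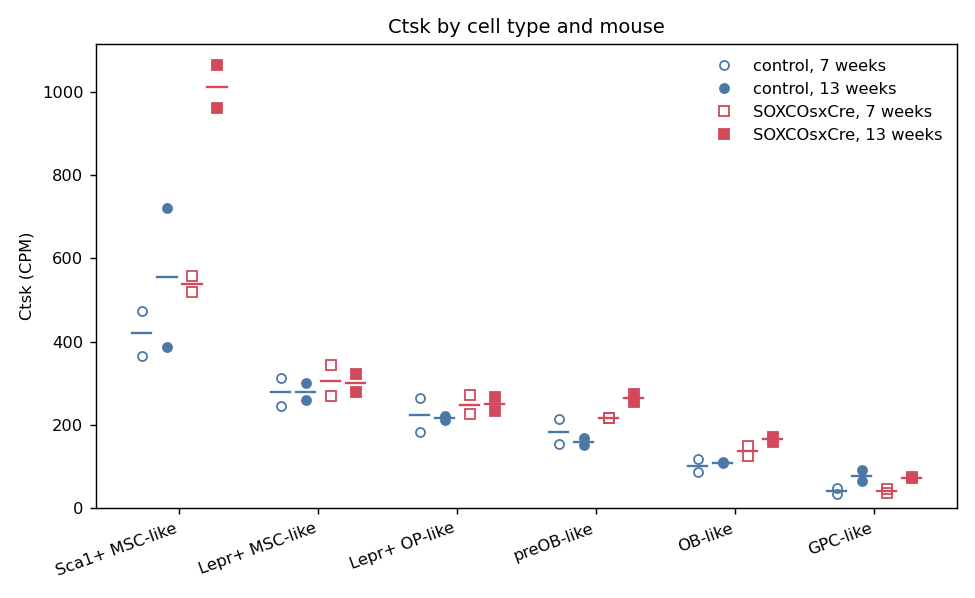
Ctsk level in CPM for each mouse (points) and group mean (short lines) in 6 stromal and cartilage types, on an axis that starts at 0. In OB-like and preOB-like cells the 4 mutant mice lie above the 4 controls, and in Lepr+ MSC-like cells they overlap.

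Osteoclasts are rich in Ctsk, and the haematopoietic lineage they belong to was depleted with beads. In OB-like cells, 7 of 9 osteoclast markers had UMIs, Dcstamp and Calcr were at 0, and their sum was 9.10 to 13.1 CPM in controls and 12.5 to 18.6 CPM in mutants, ranges that overlapped slightly and moved the same way as Ctsk. In preOB-like cells 5 of 9 had UMIs and the sum was 10.2 to 17.7 and 15.1 to 18.9 CPM. Acp5, a gene of this marker list, alone was 7.42 CPM in controls and 11.4 CPM in mutants in OB-like cells. The part of osteoclast RNA in the Ctsk difference was not tested. In Sca1+ MSC-like cells Ctsk was 487 ± 162 CPM in controls and 776 ± 278 CPM in mutants, mutants being above controls at each age, as for 3.31% of all genes tested there (log2 0.61 ± 0.24, adjusted p = 0.467), and the osteoclast markers there were 35.0 to 136 and 121 to 254 CPM. At single ages no cathepsin member passed in any type with edgeR: 0 of 70 tests at 7 weeks (6 at an unadjusted p under 0.05) and 0 of 70 at 13 weeks (4), with 0 by DESeq2 at both ages and, with the replicate block, Ctsk in OB-like cells at each age (1.91% and 3.08% of all genes called) and in preOB-like cells at 13 weeks (0.462%). Without the block 0.0411% and 0.0456% of all gene and type combinations were called.

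Cst3 also stood higher relative to the summed cysteine cathepsin genes in the 4 osteogenic types. Cst3 UMIs were divided by the summed UMIs of Ctsb, Ctsk, Ctsl, Ctss and Ctsz in the same cells, a ratio of counts and not of protein. In Lepr+ MSC-like cells the ratio was 0.830 and 0.745 at 7 weeks and 0.771 and 0.840 at 13 weeks in controls, and 1.20 and 0.888, then 1.66 and 1.71, in mutants. All mutants were above all controls. The mean was 0.797 ± 0.0459 in controls and 1.37 ± 0.392 in mutants. In Lepr+ OP-like cells it was 1.72 ± 0.481 and 3.19 ± 1.297, in preOB-like cells 2.06 ± 0.742 and 3.56 ± 1.84, and in OB-like cells 2.72 ± 0.685 and 4.58 ± 1.82, so that it was 1.68-fold to 1.85-fold that of controls in the 4 types. The summed cathepsin genes themselves were 1.10-fold to 1.18-fold the control level. In Sca1+ MSC-like cells the ratio was not higher, at 2.05 ± 0.877 in controls and 1.94 ± 0.841 in mutants, and the summed cathepsin genes were 1.32-fold. In GPC-like cells the ratio was 16.8 ± 6.07 and 21.0 ± 11.03, in hypertrophic GPC-like cells 26.3 ± 8.75 and 25.8 ± 10.9, and in erythroid-like cells 0.756 ± 0.308 and 0.755 ± 0.188. The ratio uses the Cst3 difference by which the genes were chosen, and is a description.

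**Figure D4:**
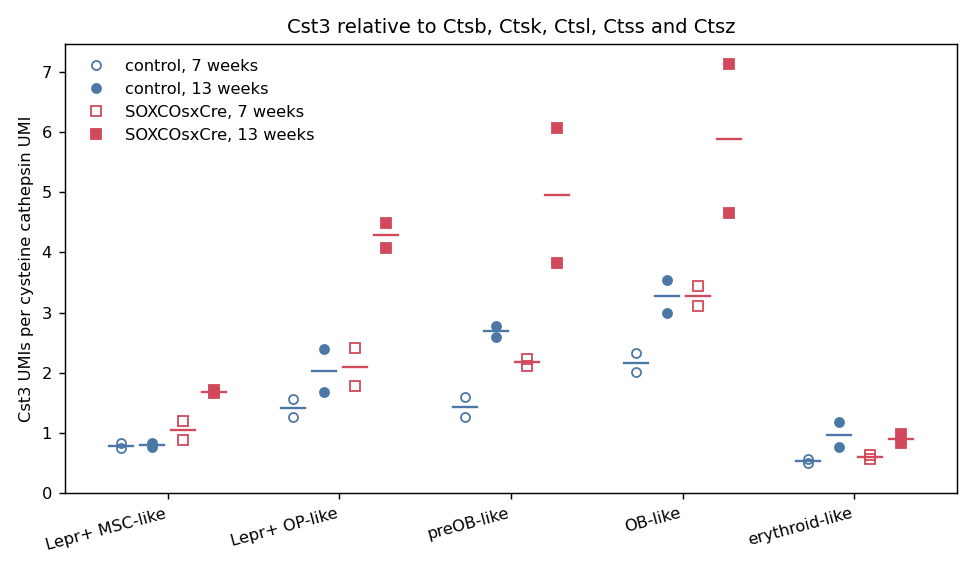
Cst3 UMIs per UMI of the 5 cysteine cathepsin genes for each mouse (points) and group mean (short lines), on an axis that starts at 0. The ratio is higher in mutants within each age in the 4 osteogenic types and overlaps in erythroid-like cells.

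Most cells of the lineage had Cst3, and the share was near its ceiling in both genotypes. When each cell was thinned to 2000 UMIs, leaving out 219 control and 171 mutant OB-like cells that were shallower, Cst3 was seen in 90.6% ± 4.96 of control and 96.6% ± 1.90 of mutant OB-like cells, and in 28.7% ± 4.56 and 34.5% ± 3.40 of erythroid-like cells. Without thinning the OB-like shares were 98.6% and 99.5%, and the erythroid-like shares 90.8% and 90.0%. Ctsk was seen in 18.9% ± 2.03 of thinned control and 24.0% ± 2.54 of thinned mutant OB-like cells, against 0.99% and 0.508% of erythroid-like cells (unthinned 70.3% and 77.4%, 8.14% and 8.18%). The median depth was 13090.5 UMIs in control and 13598 UMIs in mutant OB-like cells and 30578 and 24779 UMIs in erythroid-like cells. Ctsb was seen in 27.5% ± 1.41 and 27.8% ± 2.19 of thinned OB-like cells.

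The rest of the lysosome was read from a list of 86 genes in 7 groups: other cathepsins, other cystatins, lysosomal membrane proteins and hydrolases, sorting receptors, subunits of the vacuolar proton pump, transcriptional regulators and genes of osteoclast acid secretion. In OB-like cells 75 of them were tested and 0 passed in edgeR (8 at an unadjusted p under 0.05), with a median log2 difference of 0.08 against -0.0028 for all genes, and 56 of 75 above 0. DESeq2 called 1, Fetub, which encodes a fetuin of the cystatin superfamily. In Lepr+ MSC-like cells 71 were tested with a median of 0.02, in Lepr+ OP-like cells 72 with 0.03 and in preOB-like cells 65 with 0.07, and 0 passed in these 3 types with edgeR or DESeq2 (6, 5 and 2 at an unadjusted p under 0.05). The 34 genes of lysosomal membranes and hydrolases had a median of 0.09 and the 15 pump subunits one of 0.10 in OB-like cells.

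With the replicate block, 9 of the 75 genes passed in OB-like cells, beside the 8.61% of all genes given above. Acp5, the tartrate-resistant acid phosphatase gene, was 7.42 CPM in controls and 11.4 CPM in mutants (log2 0.64 ± 0.07 SE, adjusted p = 7.54e-04; without the block 0.26). Ctso, a cysteine cathepsin outside the 7 members, was 7.22 and 9.15 CPM (adjusted p = 0.0428; without the block 0.401). Lamp1, Hexa and Atp6ap2 were also higher, Lamp1 from 358 to 410 CPM. Fetub was lower, at 16.3 CPM in controls (log2 -0.57, adjusted p = 0.0125; without the block 0.0835). Sort1, encoding the sorting receptor sortilin, and the cholesterol transporters Npc1 and Npc2 were lower. With the block Sort1 was also lower in Lepr+ MSC-like cells (22.0 and 11.3 CPM, adjusted p = 0.014; without the block 0.109), where 1.29% of all genes were called. In Lepr+ OP-like cells Npc2 (341 and 255 CPM, adjusted p = 0.031; without the block 0.395) and Mmp9 (111 and 25.1 CPM, adjusted p = 0.0019; without the block 0.109) were lower, where 3.77% were called. Mmp9 is abundant in osteoclasts and is itself in the osteoclast marker list, so that the sum of the list includes its difference. In these cells the sum was 92.1 to 234 CPM in controls and 37.6 to 99.9 CPM in mutants.

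Age was tested as the average over both genotypes, a contrast by which the genes were not chosen. The labels give no day of preparation or other batch, so that age cannot be told apart from any batch that went with it. This holds for every age difference below. Cst3 means by genotype are given for some types, although no member passed the test of a genotype difference in the age change (lowest adjusted p = 0.924 in edgeR). In Lepr+ MSC-like cells the mean was 1767 CPM at 7 and 1793 CPM at 13 weeks in controls, and 2789 and 4376 CPM in mutants. In hypertrophic GPC-like cells it was 16141 and 23829 CPM in controls, and 12751 and 33626 CPM in mutants. From 7 to 13 weeks Cst3 rose in GPC-like cells, from 6522, 7736, 7516 and 10181 CPM to 19707, 14559, 16588 and 29534 CPM, in controls and mutants in turn. The ages did not overlap, which held in either direction for 17.6% of genes in these cells. The 4 older mice were above the 4 younger mice by 1.32 ± 0.21 (SE) on the log2 scale, with an adjusted p of 0.00819 in edgeR, which called 4.92% of all genes in these cells. In hypertrophic GPC-like cells it rose by 0.98 ± 0.19 (adjusted p = 0.00963, 3.29% of genes called), from 12133 to 18574 CPM at 7 weeks to 22662 to 41002 CPM at 13 weeks. The 7-week values there rest on few cells, 16 in each control and 25 and 72 in the mutants. Cst3 also rose in preOB-like (0.97 ± 0.17, adjusted p = 9.77e-04; 2.9% called), endothelial-like (0.72 ± 0.14, adjusted p = 0.0166; 2.94% called) and OB-like cells (0.72 ± 0.15, adjusted p = 0.046; 1.81% called). In OB-like cells the adjusted p was 0.0862 to 0.136 without 7 of the 8 mice in turn, and in endothelial-like cells 0.0563 to 0.0699 without 5 of them. In hypertrophic GPC-like cells it was 0.0585 without the second 7-week control. In Lepr+ MSC-like cells the estimate was 0.34 ± 0.16 (adjusted p = 0.668), and in the other 9 types no member passed with edgeR, where 0.318% of gene and type combinations were called. Over all types 6 of 84 member tests passed (21 at an unadjusted p under 0.05, 11 with DESeq2, which called 1.61% of all gene and type combinations), among the latter Cst3 in Lepr+ OP-like cells (0.64 ± 0.19 SE, adjusted p = 0.133 in edgeR and 0.00103 in DESeq2, which called 1.9% of genes there).

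**Figure D5:**
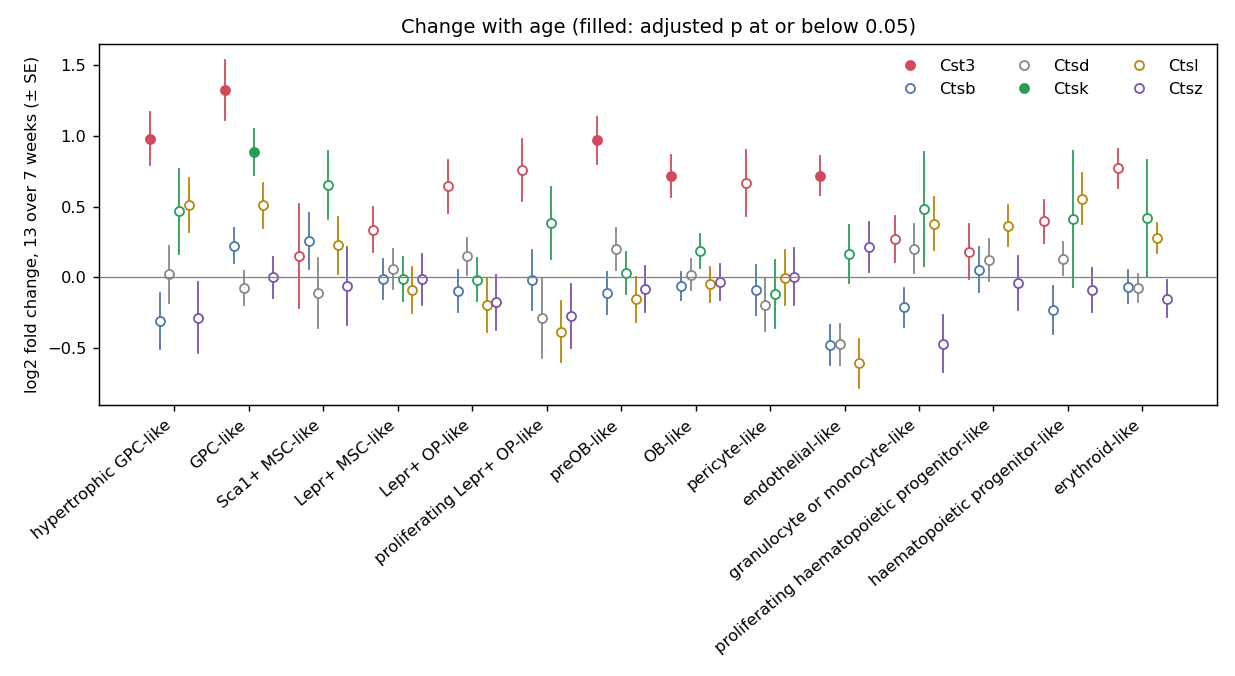
Fitted log2 fold change from 7 to 13 weeks (± SE, both genotypes) of 6 members in the 14 types, with filled points where the adjusted p was at or below 0.05. Cst3 is filled in hypertrophic GPC-like, GPC-like, preOB-like, OB-like and endothelial-like cells, Ctsk is filled in GPC-like cells, and the remaining points are open.

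Background RNA was measured beside the age differences too. Cst3 in erythroid-like cells was 142 to 205 CPM at 7 weeks and 251 to 354 CPM at 13 weeks (log2 0.77 ± 0.14, adjusted p = 0.537 in edgeR and 0.00236 in DESeq2, which called 0.021% of genes there). The summed GPC markers were 814 to 1097 CPM at 7 weeks and 1881 to 3206 CPM at 13 weeks in preOB-like cells, and 2193 to 5360 and 3817 to 6360 CPM in OB-like cells. After subtracting the Cst3 that these markers could have carried, the older mice were 1.86-fold the younger in preOB-like cells (before, 2.04-fold), 1.46-fold in OB-like cells (1.71-fold), 1.45-fold in endothelial-like cells (1.61-fold) and 1.53-fold in erythroid-like cells (1.63-fold). In preOB-like and OB-like cells the ages overlapped before and after the subtraction, in erythroid-like cells only after it, and in endothelial-like cells in neither case, where the ages did not overlap for 10.9% of genes. Taken from the mean log2 CPM of the mice instead of the fit, the age difference in GPC-like cells was 0.33 to 1.23 above those of the other 13 types. No test is given for these differences, since the type was picked for its estimate and an exact permutation test over the 8 mice cannot go below p = 0.0286.

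The rise in GPC-like cells was seen in both main clusters. In the cluster led by Snorc, Col10a1 and Cytl1, Cst3 was 11954 to 15486 CPM at 7 weeks and 28497 to 47987 CPM at 13 weeks. In the other, which held less Cst3, it was 1079 to 1714 and 3048 to 8846 CPM. The first cluster made up 49.6% to 64.3% of GPC-like cells at 7 weeks and 44.9% to 52.2% at 13 weeks. Ctsk also rose in GPC-like cells, from 33.8, 49.1, 36.0 and 45.4 CPM to 90.7, 65.4, 72.0 and 73.6 CPM (log2 0.89 ± 0.16 SE, adjusted p = 0.0134 in edgeR). Its ages did not overlap, as for 17.6% of genes in these cells. Without the first 7-week control or the second 13-week mutant the adjusted p was 0.0622 and 0.0663. Ctsl was 136 to 253 CPM at 7 weeks and 213 to 345 CPM at 13 weeks in these cells (log2 0.51 ± 0.16, adjusted p = 0.0903 in edgeR and 0.0342 in DESeq2, which called 5.73% of genes there). Ctsb and Ctsd had estimates of 0.22 and -0.08, and that of Ctsz was near 0.

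In endothelial-like cells Ctsb, Ctsd and Ctsl had age estimates below 0, and Ctsk and Ctsz had estimates above 0 (0.17 and 0.21), like Cst3. Ctsl was 691, 921, 1470 and 918 CPM at 7 weeks and 582, 606, 621 and 773 CPM at 13 weeks (log2 -0.61 ± 0.18 SE, adjusted p = 0.0909). Ctsb was 934, 938, 1010 and 1048 CPM and then 695, 751, 603 and 768 CPM (log2 -0.48 ± 0.14, adjusted p = 0.0964), and Ctsd had a log2 difference of -0.47 ± 0.15 (adjusted p = 0.114). None passed with edgeR (3 at an unadjusted p under 0.05), whereas DESeq2 called Ctsb and Ctsl (adjusted p = 0.0225 and 0.0244, with 3.07% of genes called). The ages did not overlap for Ctsb or Ctsd, which held in either direction for 10.9% of genes in these cells. Lgmn, which encodes the lysosomal protease legumain and was listed with the cystatins that inhibit it, fell in the same cells from 449 to 282 CPM (adjusted p = 0.0391). All 12 macrophage markers had UMIs in endothelial-like cells, and their sum was 488 to 982 CPM at 7 weeks and 369 to 436 CPM at 13 weeks. Their part in these values was not tested.

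Other genes of the list of related genes passed the age test. In GPC-like cells Ctsf, a cysteine cathepsin, rose from 41.2 to 91.2 CPM (log2 1.17, adjusted p = 0.00249), and the hydrolase gene Fuca1 rose by 0.56 (adjusted p = 0.0305). In hypertrophic GPC-like cells Cstb, the gene of the intracellular inhibitor cystatin B, rose from 437 to 805 CPM (adjusted p = 0.00791) and Hexa rose by 0.88 (adjusted p = 0.0394). In OB-like cells Lipa, the lysosomal lipase gene, rose by 0.52 (adjusted p = 0.0285) and Fetub fell from 17.5 to 9.83 CPM (adjusted p = 0.0167). In preOB-like cells Scarb2 and Ctsh fell, Ctsh from 249 to 160 CPM (adjusted p = 0.0318 and 0.029). Over all types 10 of 895 tests of the list passed, where 1.47% of all gene and type combinations were called, so that nothing is read about the list as a whole.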

How the data were processed

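Single-cell RNA-seq libraries (10x 3′ v3) were made from 8 mice. Per the labels and the study's methods, the authors made the deposited UMI counts with Cell Ranger 6.1.2 on mm10. Every deposited value is a whole-number count per gene and cell. The labels and the methods name different sequencers. Members and gene lists were chosen with earlier results of these data known.

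Cells with 200 to 6000 genes and at most 10% mitochondrial UMIs were kept, and 9.67% to 11.3% per library were left out by a doublet score computed after the method of DoubletFinder. Libraries were integrated with Seurat 5.3.0 (2000 variable genes, 30 components) and clustered at resolution 1. Clusters were named from marker lists, and the rules for proliferating and hypertrophic clusters were settled after the clusters were seen. 9607 cells in clusters whose median depth was under 33.3% of the median of their own library, 410 lymphoid-like cells (under 10 in some mice) and 11 unnamed cells were left out of the comparisons.

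UMIs were summed per mouse and type and fitted over the 4 groups with edgeR 4.0.16 (filterByExpr, TMM, quasi-likelihood, Benjamini-Hochberg adjustment over all genes of a type; DESeq2 1.42.0 as an alternative). The test was checked on simulated data. CPM of members, list genes and markers between genotypes carry the TMM scaling. CPM of single clusters, of markers by age, of Ctss pooled over mice and of Cst3 after subtraction use plain totals. Labels call the mice of a genotype and age replicates 1 and 2, and littermate sisters were used. Same-numbered mice deviated together at both ages in OB-like (r = 0.554 and 0.532 over genes), Lepr+ OP-like (0.37 and 0.328), Lepr+ MSC-like (0.322 and 0.168) and preOB-like cells (0.216 and 0.103), so the number was taken as a pair in these 4 types, although no label ties it to a litter. Replicate 1 was also the deeper library in every group, so that a shared depth cannot be told apart from a shared litter in these correlations. Same-numbered controls of different ages also deviated together (r = 0.291 in OB-like, 0.188 in Lepr+ OP-like cells), as did endothelial-like (0.264 and 0.117) and erythroid-like cells (0.335 and 0.27) between genotypes, where the block called no cathepsin. Named genes were all members, list genes past the threshold between genotypes in a type where a member passed, and up to 8 others per list with the lowest p in OB-like cells. List genes that passed only with age, and Hexa in OB-like cells, were named after their values were seen. Counting intervals cover counting error only. Sequences are from RefSeq. One gene of the list is not reported here.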

Additional observations from a re-analysis of the deposited data

Results flagged for a closer look

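In 3 of 87 sets of 4 control mice, 1 mouse lay far from the other 3 by Dixon's test; chance marks about 1 set in 20. Ctsb in hypertrophic GPC-like cells was 368 CPM in the second 7-week control and 202 to 215 CPM in the others. Ctsl in proliferating Lepr+ OP-like cells was 523 CPM in the same mouse and 366 to 387 CPM in the others. Ctsk in erythroid-like cells was 1.48 CPM in the first 7-week control and 5.10 to 5.72 CPM in the others.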

How the results depend on the processing

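Of 1091 values recomputed for 81 results, 995 kept their direction and their side of the threshold or stayed within the spread between mice. The cathepsins called between genotypes in OB-like cells numbered 0 in edgeR and 1, Ctsk, with DESeq2, without the filter on low counts (adjusted p = 0.00154), with the replicate block, and without the second 7-week control (adjusted p = 0.0437), and 0 to 1 over all mice left out in turn. In preOB-like cells the count was 1 with the replicate block. Over both ages, the block changed no other call of the cathepsin members between genotypes. Of the other cathepsins it called Ctso in OB-like cells and Ctsh in pericyte-like cells (log2 1.41, adjusted p = 0.0329; without the block 1.46 and 0.182), where the replicate number did not pair the mice at 13 weeks (r = 0.033).

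The replicate number as a block across ages, which does not follow litters, gave 1 member called with age in Lepr+ OP-like, 4 in endothelial-like and 1 in erythroid-like cells, and DESeq2 gave 1, 3 and 1, against 0, 1 and 0. Leaving out single mice gave 1 to 3 members with age in GPC-like, 0 to 1 in OB-like, 0 to 2 in endothelial-like, 0 to 1 in hypertrophic GPC-like and 0 to 1 in proliferating Lepr+ OP-like cells. The cause was not tested. The Cst3 difference between genotypes in Lepr+ OP-like cells was 1.26 with a mitochondrial limit of 5% and 0.80 without integration.

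Values near 0 changed sign. Ctsd in preOB-like cells was 0.021 with the replicate block and 0.094 without integration, Ctsl there was -0.0046 with doublets kept and Ctsz there -0.040 with the 5% limit. With single mice left out, Ctsd ran from -0.12 to 0.036 in Lepr+ MSC-like cells, Ctsd ran from -0.11 to 0.076 in preOB-like cells, Ctsl ran from -0.10 to 0.19 in preOB-like cells, Ctsl ran from -0.058 to 0.17 in OB-like cells, Ctsz ran from -0.20 to 0.13 in Lepr+ MSC-like cells, Ctsz ran from -0.14 to 0.25 in Lepr+ OP-like cells, Ctsz ran from -0.084 to 0.17 in preOB-like cells, Ctsz ran from -0.023 to 0.19 in OB-like cells, Cst3 with age ran from -0.27 to 0.46 in Sca1+ MSC-like cells and Cst3 with age ran from -0.047 to 0.46 in proliferating haematopoietic progenitor-like cells. The Cst3 difference between genotypes ran from -0.089 to 0.66 in Sca1+ MSC-like, -0.077 to 0.23 in hypertrophic GPC-like, -0.017 to 0.23 in erythroid-like and -0.12 to 0.38 in proliferating haematopoietic progenitor-like cells, and was 0.39 in erythroid-like cells with doublets kept. At resolution 1.5 no cluster was named preOB-like by the naming rule, and the cluster that held most of these cells stayed unnamed. Depth limits Ctss most, with 119 UMIs at most in a type compared.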
